A study of Mus musculus with 3 samples.

Results

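Plasma miRNAs of mice that had done a single bout of aerobic exercise were compared with those of caged mice over all 1900 mouse miRNA probes of a microarray. Each side was 1 pool of plasma from 3 male C57BL/6 mice aged 8 weeks, hybridized to 1 array. The aerobic exercise pool came from blood drawn 3 h after the bout, and the caged control pool came from mice kept in cages. Both groups were fasted overnight, and 100 µl of plasma per mouse was mixed to 300 µl. C57BL/6 is a common inbred strain, no allele or drug is named in the labels, and neither is the exercise regimen. A resistance exercise pool, of mice of the same strain, sex and age bled and pooled in the same way, is used for a few values at the end. All 1900 probes whose names mark a mouse miRNA were taken, on the array labelled aerobic exercise and on the array labelled normal caged. Of these, 1321 were detected on both arrays and are the miRNAs compared below.

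miRNAs are RNAs of about the length of a small interfering RNA that guide Argonaute proteins to messenger RNAs and repress them. Target choice rests largely on the seed, bases 2 to 8 from the 5′ end of the mature miRNA. Plasma holds miRNAs in vesicles and in protein complexes, released by blood cells, vessel walls, muscle, liver and other tissues. Mixed plasma cannot show whether a level differed because more cells released an miRNA or because each cell released more.

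The mature sequences of the miRNAs that differed most, or whose relatives differed together, are shown first. They were taken from RefSeq (GRCm38.p6), with the seed in capitals and the remaining bases in lower case. A RefSeq sequence was found for 1614 of the 1900 probes and for 1131 of the 1321 compared. The muscle group is represented by miR-133b-3p and miR-206-3p, both encoded within the bounds of the lncRNA gene Lincmd1, at chr1:20682834-20682855 and chr1:20679055-20679076 on the plus strand. Their seeds differ.
miR-133b-3p: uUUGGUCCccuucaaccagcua
miR-206-3p: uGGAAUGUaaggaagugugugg

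Both arms of the miR-6912 hairpin were lower after aerobic exercise. They lie within the bounds of the protein-coding gene Scamp4, at chr10:80609265-80609286 for the 5p arm and chr10:80609305-80609329 for the 3p arm, plus strand.
miR-6912-5p: uACAGGGAgggugcucaggcag
miR-6912-3p: cUACCUGAgggucuccuuccugcag

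At the other end, miR-212-3p had the largest positive difference. It shares its seed with miR-132-3p, whose gene is its neighbour, at chr11:75173443-75173464 and chr11:75173723-75173744 on the plus strand.
miR-212-3p: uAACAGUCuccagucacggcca
miR-132-3p: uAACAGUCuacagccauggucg

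The families below share a seed within each block and stood above zero as groups. miR-16-5p is encoded on chr3:69009918-69009939 (plus strand, within Smc4) and chr14:61631936-61631957 (minus strand, within Dleu2), and miR-15b-5p beside the first of these at chr3:69009775-69009796.
miR-16-5p: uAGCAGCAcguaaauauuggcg
miR-15b-5p: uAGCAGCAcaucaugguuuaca

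let-7 members differ from each other at few bases outside the seed.
let-7a-5p: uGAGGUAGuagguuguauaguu
let-7d-5p: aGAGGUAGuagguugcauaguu
let-7e-5p: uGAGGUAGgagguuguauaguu
let-7i-5p: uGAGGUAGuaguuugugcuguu
miR-98-5p: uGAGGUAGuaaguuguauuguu

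The miR-17 seed is carried by members of several genomic clusters, of which miR-93-5p and miR-106b-5p lie within the bounds of Mcm7 on chromosome 5, at chr5:138165574-138165596 and chr5:138165787-138165807, minus strand.
miR-17-5p: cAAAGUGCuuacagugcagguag
miR-20a-5p: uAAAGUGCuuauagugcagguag
miR-93-5p: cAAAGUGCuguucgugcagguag
miR-106b-5p: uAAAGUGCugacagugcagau

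The red cell miRNAs miR-144-3p and miR-451a come from chr11:78073047-78073066 and chr11:78073186-78073207, plus strand, and have unlike seeds. miR-6239 and miR-5100, bright and higher in the aerobic pool, belong to none of the families above.
miR-144-3p: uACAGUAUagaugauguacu
miR-451a: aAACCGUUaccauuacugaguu
miR-6239: uAGCGUUGgaucacucggug
miR-5100: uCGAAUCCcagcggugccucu

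With 1 array a side there are no replicates, so differences are described without a test or p-value, and their spread between mice is unknown. The only error the arrays hold is the scatter of repeated spots. Over both arrays the pooled SD of the spike-in controls, 2 probes with 8 spots each, was 0.11 (log2), which gives an SD of 0.16 for a difference between 2 single spots and a limit of 0.32, or 1.25-fold, at 2 SD. "Beyond spot scatter" below means past that limit. The spikes are bright, with mean raw intensities of 13666 and 19095 on the aerobic array and 12526 and 17452 on the control array. For 5 dimmer control probes with repeated spots, with mean raw intensities of 103 to 128, the same limit was 0.12 for S-Probe6, 0.17 for Negative Control 3, 0.33 for S-Probe2, 0.45 for S-Probe7 and 0.79 for the 16 spots of Negative Control 1. None of these limits covers differences between mice, pools or hybridizations.

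The arrays also differed as a whole. Blank spots averaged 92.9 on the aerobic array and 92.0 on the control array, with SDs of 3.05 and 1.41, and an miRNA counted as detected above 99.0 and 94.8 in the same order. Of the 174 printed spots without a probe, 4.02% passed that level on the aerobic array and 78.7% on the control array. Before scaling, the median miRNA compared was brighter by 0.20 (log2) on the aerobic array, and the spikes by 0.13 for both probes. Differences below are quantile normalized log2 intensities of the aerobic pool minus the control pool, so they are relative to the array as a whole, and an offset of 50 added before the logarithm pulls dim miRNAs towards 0.

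With this processing, aerobic and caged plasma had much the same miRNA profile, with a small set of outlying miRNAs. The set was larger otherwise: beyond spot scatter were 219 higher and 184 lower with blank subtraction, and 179 and 252 in the authors' values. Muscle miR-133a-3p, miR-133b-3p and miR-1a-3p and both arms of miR-6912 were below caged plasma. miR-212-3p, miR-122-5p of the liver, miR-16-5p and members of the let-7 and miR-17 seed families were above it, by less than 2-fold with this processing. miR-212-3p passed 2-fold in 5 of the 10 alternatives tried, and miR-16-5p and miR-122-5p each in 1. Alternatives in detection, or with background from spots without a probe, left these differences unchanged. Across the 1321 miRNAs the log2 intensities of both pools correlated at r = 0.992 (n = 1321), a description over miRNAs, which share both arrays and are not replicates. Differences had an SD of 0.17, and 94.0% lay within spot scatter. At least 2-fold higher were 0 miRNAs (0% of those compared) and at least 2-fold lower 3 (0.227%). Beyond spot scatter were 51 higher (3.86%) and 28 lower (2.12%). Past the wider limit of 0.79 from Negative Control 1, whose spots are nearer in brightness to most miRNAs, were 2 higher (miR-212-3p and miR-16-5p) and 4 lower (miR-6912-5p, miR-133a-3p, miR-133b-3p and miR-1a-3p). All 51 higher miRNAs also had the brighter raw spot on the aerobic array, as did 1243 of all 1321. Of the 28 lower miRNAs, 25 had the dimmer raw spot there, and the other 3 were lower once the arrays had been scaled.

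How many miRNAs lay beyond spot scatter in each direction depended on the scaling and on the background step. With no scaling there were 255 higher and 9 lower, with scaling to the spikes 126 and 13, and with scaling to the median miRNA 92 and 15. In the authors' own normalized intensities, whose background step also differs, there were 179 higher and 252 lower. With quantile scaling kept, an offset of 0 gave 147 higher and 115 lower, and subtraction of the blank mean 219 and 184. All 51 higher miRNAs remained higher under each of the first 3 of these settings, and 35 did in the authors' values. All 28 lower miRNAs remained lower in the authors' values, 15 with median scaling, 13 with spike scaling and 9 with none. The 3 miRNAs at least 2-fold lower stayed at least 2-fold lower in all 10 alternatives. Not all of these could change that. Detection at 10 SD, no detection filter and background from spots without a probe leave each miRNA's difference as it was.

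The share of miRNAs beyond spot scatter grew with brightness. Among 348 miRNAs with a mean raw intensity under 110, none was beyond it, and among 430 between 110 and 150 there were 3 higher and 4 lower. Between 150 and 300 there were 19 higher and 7 lower of 326, and between 300 and 1000 there were 18 and 10 of 142. Above 1000 there were 11 higher and 7 lower of 75 miRNAs. The offset narrows differences at the dim end, so fewer of them can pass the limit.

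**Figure D1:**
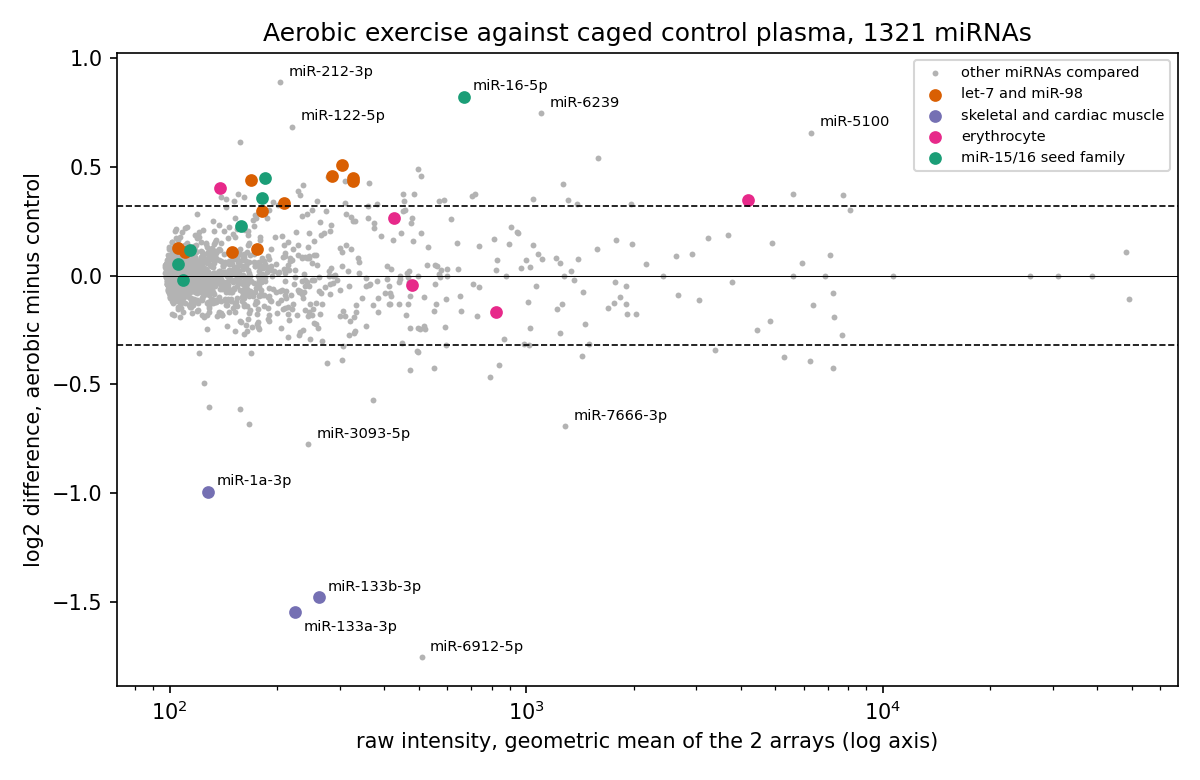
Each point is 1 of the 1321 miRNAs compared. The x axis gives the geometric mean of its raw intensity on both arrays (log axis), the y axis its log2 difference, aerobic minus control, and dashed lines mark 0.32 and -0.32, the limits of spot scatter. Muscle miRNAs of the list lie below the lower line. Above the upper line lie 6 of 11 let-7 and miR-98 probes and 3 of 7 miR-15/16 probes.

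The lowest miRNAs after aerobic exercise were of muscle and of the miR-6912 hairpin. miR-133a-3p, which with miR-1 shapes muscle differentiation, had a raw intensity of 155 in the aerobic pool and 326 in the control pool, a log2 difference of -1.55. miR-133b-3p, its close relative from the Lincmd1 locus, had 181 in the aerobic pool and 379 in the control pool, a difference of -1.48. Both spots were well above background on both arrays. miR-1a-3p had 104 in the aerobic pool and 158 in the control pool, a difference of -0.99, and its aerobic spot lay only 11.2 units above the blank mean. That small remainder makes its fold unstable: the log2 difference was -3.04 in the authors' values.

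The remaining muscle probes of the list were at or near background, so the muscle result rests on these 3 of 7 probes. They were 3 lower and 0 higher, against 2.12% and 3.86% of all miRNAs compared. Their median was -1.48, against a median of 0.00 over all miRNAs compared. Whether the probes for miR-133a-3p and miR-133b-3p tell these relatives apart was not tested, so their values may not be independent. The list leaves out miR-208a-5p, a bright probe within spot scatter that is described in the last paragraph. The skeletal muscle miRNA miR-206-3p, which lies near miR-133b in the genome, read 97.0 in the aerobic pool and 102 in the control pool, and was detected in the control pool alone. Among probes for miRNAs from introns of myosin genes, miR-208a-3p read 85.2 in the aerobic pool and 90.1 in the control pool. miR-499-5p read 87.3 and 89.5, and miR-208b-3p 87.7 and 87.4, in the same order. All of these were below detection on both arrays. The passenger arm miR-133b-5p, at 107 and 104, differed by -0.04, within spot scatter. For this hairpin, then, the bright arm differed and the dim arm did not differ detectably.

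miR-6912-5p had the largest difference of the comparison, -1.75, with 322 in the aerobic pool and 804 in the control pool. miR-6912-3p, from the same hairpin, stood at -0.68, with 147 and 189.6 in the same order. No function is given for this hairpin here. It was the only one of 401 hairpins with both arms compared in which both lay beyond spot scatter.

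Other lower miRNAs mostly carried high numbers, which were assigned later than low ones. Of the 28 beyond spot scatter, 23 had numbers of 1000 or higher, against 831 of the 1321 compared. miR-3093-5p read 209.8 in the aerobic pool and 284 in the control pool, a difference of -0.77. The bright miR-7666-3p read 1130.1 and 1462, a difference of -0.69. miR-6918-5p (-0.62), miR-5123 (-0.61), miR-5129-5p (-0.57), miR-5125 (-0.49), miR-6953-5p (-0.46), miR-5131 (-0.43), miR-1934-3p (-0.43) and miR-6968-5p (-0.42) complete the 15 lowest. Their raw spots were dimmer in the aerobic pool in every case, but by little for miR-6953-5p, at 764 against 823, and for miR-1934-3p, at 534 against 570.0. Without scaling between arrays miR-6953-5p and miR-1934-3p would differ by -0.11 and -0.10. Also within spot scatter without scaling were miR-6968-5p (-0.19), miR-5131 (-0.21), miR-5129-5p (-0.26) and miR-5125 (-0.30). The aerobic spots of miR-5123 and miR-5125 lay only 22.5 and 21.9 units above the blank mean. Such small remainders make their folds unstable: the log2 differences were -1.67 and -1.48 in the authors' values.

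**Figure D2:**
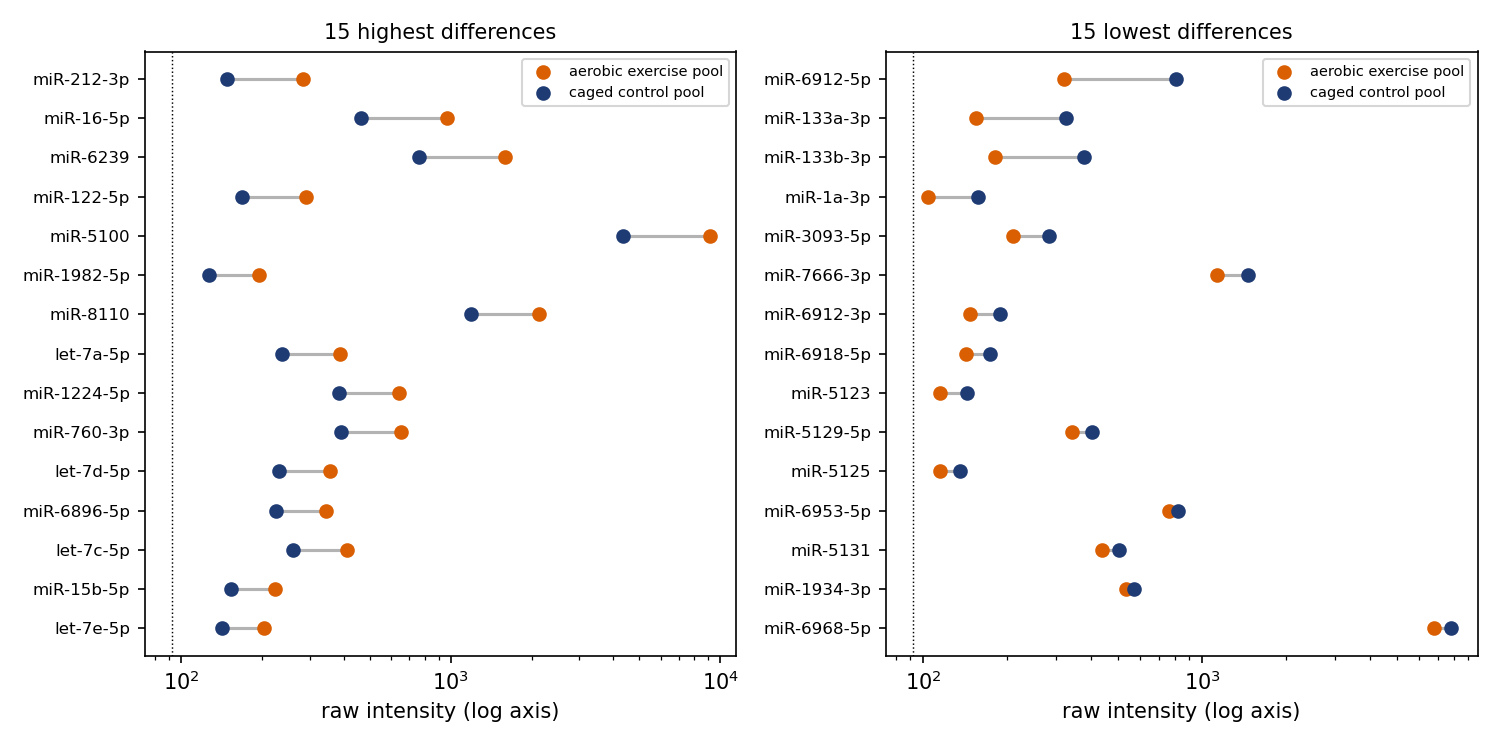
Raw intensity (log axis) of the 15 miRNAs with the highest and the 15 with the lowest difference, in the aerobic exercise pool (orange) and the caged control pool (blue), with the control array's blank mean of 92.0 as a dotted line. Every miRNA on the left panel is brighter, and every one on the right panel dimmer, in the aerobic pool.

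The largest positive difference was of miR-212-3p, which in neurons and endocrine cells is induced through the transcription factor CREB. It read 282 in the aerobic pool and 148 in the control pool, a difference of 0.89. That value was 1.31 with an offset of 0, 1.41 with the blank mean subtracted, 1.15 without scaling, 1.02 with spike scaling and 1.28 in the authors' values. miR-132-3p, from the neighbouring gene and with the same seed, read 93.6 and 96.4 and was below detection in the aerobic pool. The opposite arm miR-212-5p read 119 and 105, a difference of 0.15, but its spot is dim and the offset narrows it. It lay 26.3 units above the blank mean in the aerobic pool and 13.0 in the control pool, and differed by 0.55 in the authors' values, in the same direction as miR-212-3p. Of the 12 neuron probes 5 were compared and 1 was higher, against 3.86% of all miRNAs compared, with a median of 0.06. Neuronal miR-9-5p read 88.6 in the aerobic pool and 87.9 in the control pool, at background on both arrays.

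miR-16-5p, which restrains cell cycle genes and is abundant in red cells, read 968 in the aerobic pool and 464 in the control pool, a difference of 0.82 that was 1.13 without scaling. Its relatives differed by less. miR-15b-5p stood at 0.45, with 223 and 152, miR-15a-5p at 0.36, with 213.6 and 154, and miR-195a-5p at 0.23, with 179 and 139.9, in the same order. miR-497a-5p stood at 0.12, miR-497b at 0.05 and miR-322-5p at -0.02. Of the 8 probes on this family's list 7 were compared, 3 were higher and 0 lower, with a median of 0.23. Over all miRNAs compared 3.86% were higher and 2.12% lower. The 3 beyond spot scatter were the brightest of the 7.

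miR-122-5p, by far the most abundant miRNA in hepatocytes, read 290.2 in the aerobic pool and 167 in the control pool, a difference of 0.68 that was 1.02 with the blank mean subtracted. The other liver-rich probes differed less. miR-148a-3p stood at 0.21, miR-192-5p at 0.20 with raw values of 187 and 147, miR-194-5p at 0.08 and miR-215-5p at 0.00. Of 5 liver probes compared 1 was higher and 0 lower (median 0.20), against 3.86% and 2.12% of all miRNAs compared.

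All 11 let-7 and miR-98 probes were above 0, and 6 were higher beyond spot scatter, against 3.86% of all miRNAs. The family represses growth genes such as Ras and is itself restrained by Lin28. let-7a-5p read 388 in the aerobic pool and 237 in the control pool, a difference of 0.51. let-7d-5p stood at 0.46, let-7c-5p at 0.45, let-7e-5p at 0.44, let-7b-5p at 0.43 and let-7f-5p at 0.34. let-7g-5p, at 0.29, lay just within spot scatter, and miR-98-5p, let-7i-5p, let-7j and let-7k lay between 0.11 and 0.13. The sequences of let-7b-5p to let-7g-5p differ from let-7a-5p at 1 or 2 bases and that of let-7i-5p at 4. Whether these probes tell such relatives apart was not tested, so their values may not be independent.

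The miR-17 seed family, whose clusters promote proliferation, was even more uniform. Its 6 members compared ranged from 0.21 for miR-20b-5p to 0.39 for miR-93-5p, and 5 were higher beyond spot scatter. Some, such as miR-17-5p and miR-20a-5p, differ at few bases. Whether their probes tell them apart was not tested, so these values may not be independent either. miR-93-5p read 277 in the aerobic pool and 188 in the control pool, miR-20a-5p 189 and 138, and miR-17-5p 237 and 170.1. Other seeds of the same clusters behaved less alike: miR-25-3p stood at 0.42, with 287 and 195, and miR-19a-3p at 0.28, while miR-92a-3p stood at 0.14, miR-18a-5p at 0.07, miR-363-3p at 0.03 and miR-92b-3p at -0.03. Of 13 probes of these clusters compared, 6 were higher and 0 lower, with a median of 0.28. Over all miRNAs compared the shares were 3.86% higher and 2.12% lower. By position, the 5 products compared from miR-106b-25 on chromosome 5 had a median of 0.34, with 3 higher. The related clusters stood lower. The 8 products of the miR-17 cluster on chromosome 14 had a median of 0.16, with 2 higher. The 7 of the miR-106a cluster on chromosome X had a median of 0.14, with 1 higher. The probes for miR-19b-3p and miR-92a-3p count in both of these clusters, and their signal cannot be assigned to either. The chromosome X median is the value of miR-92a-3p itself.

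Red cell markers were above caged plasma in part. miR-451a, which is matured by Ago2 without Dicer, read 5741 in the aerobic pool and 3056 in the control pool, a difference of 0.35. miR-144-3p, from the same transcript, read 161 and 118, a difference of 0.40. miR-486b-5p and miR-486a-5p, which have 1 probe between them, read 506 and 358, a difference of 0.26 within spot scatter, while miR-486b-3p and miR-486a-3p stood at -0.04 and -0.17. Of 6 erythrocyte probes 5 were compared, and miR-144-5p was at background. Of the 5, 2 were higher and 0 lower, against 3.86% and 2.12% of all miRNAs compared. Their summed raw intensity was 7785 in the aerobic pool and 4759 in the control pool, of which miR-451a alone gave 5741 and 3056. These sums are unscaled, and 1243 of all 1321 miRNAs had the brighter raw spot on the aerobic array. miR-16 and miR-451a are both plentiful in red cells, and what part red cell RNA has in the higher let-7, miR-15/16 and miR-17 values was not tested.

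Other families were higher in part or within spot scatter, beside 3.86% higher and 2.12% lower of all miRNAs compared. Of 5 miR-30 probes, broadly expressed and rich in heart and kidney, 2 were higher, miR-30c-5p at 0.44 and miR-30d-5p at 0.37 (median 0.27). Of 2 miR-26 probes, miR-26a-5p was higher at 0.37, with 278 and 193, and miR-26b-5p stood at 0.23. Among the miR-23, miR-27 and miR-24 clusters 1 of 5 was higher, miR-27a-3p at 0.33 (median 0.14). The miR-99/100 and miR-125 list had a median of 0.19, the mesenchymal list (miR-199 and its cluster partner) of 0.11 and the miR-29 family, which represses collagens, of 0.12, with 0 of 5, 0 of 5 and 0 of 3 beyond spot scatter.

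Vessel wall probes were all above 0, with 1 of 9 higher: miR-126a-5p, from the endothelial gene Egfl7, at 0.43, with 221 in the aerobic pool and 152 in the control pool. Its more abundant partner miR-126a-3p stood at 0.24, smooth muscle miR-143-3p and miR-145a-5p at 0.18 and 0.16, and the list median was 0.18. The 8 platelet probes (median 0.17) and the 9 leukocyte probes (median 0.07) had 0 beyond spot scatter. Over all miRNAs compared 3.86% were higher and 2.12% lower, so 0 in lists this short says little. Myeloid miR-223-3p read 505 in the aerobic pool and 422 in the control pool, which after scaling is 0.01. The inflammation-induced miR-146a-5p and miR-146b-5p stood at -0.16 and -0.23.

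Among miRNAs often used to normalize plasma data, 2 of 9 were higher, miR-93-5p and miR-107-3p. With 3.86% higher and 2.12% lower over all miRNAs compared, a count of 0 in the short lists below says little. miR-107-3p stood at 0.35, with 167 in the aerobic pool and 125 in the control pool. miR-484 (0.05), miR-191-5p (0.05), miR-320-3p (-0.02), miR-425-5p (-0.06) and miR-423-5p (-0.21) lay within spot scatter. miR-107-3p was also the 1 higher probe of 11 on the metabolic list (median 0.08), where miR-378a-3p, from an intron of Ppargc1b, stood at 0.02 and cholesterol-linked miR-33-5p at 0.02. Epithelial probes had 0 of 7 beyond spot scatter (median 0.00, positive under some scalings), with miR-205-5p at -0.24. The p53-linked miR-34 list (median 0.05, turning to 0.00 or just below with median scaling) had 0 of 4, and the hypoxia and inflammation list (median -0.02, above 0 without scaling or with spike scaling) 0 of 3, with miR-210-3p, the classical hypoxia miRNA, at -0.02.

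**Figure D3:**
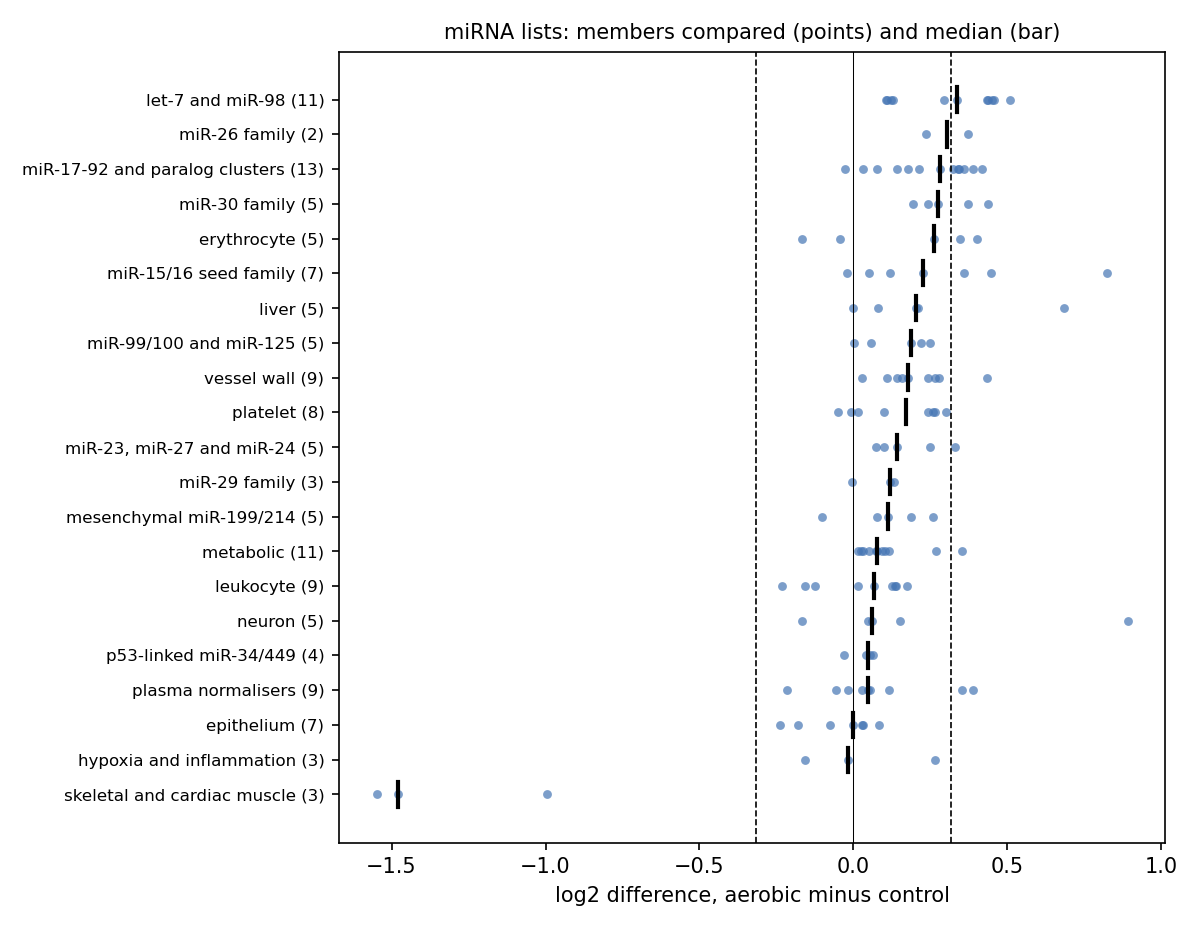
Log2 difference, aerobic minus control (x axis), of every list member compared, 1 row per list with the number compared in brackets. Points are probes, bars are list medians and dashed lines are the limits of spot scatter at 0.32 and -0.32. The muscle list lies alone on the left with a median of -1.48, and the let-7 list has the highest median, 0.34.

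Bright miRNAs without a well-known tissue of origin were also among the highest. miR-6239 read 1584 in the aerobic pool and 763 in the control pool, a difference of 0.75, and miR-5100 read 9116 and 4367, a difference of 0.66. Unlike the dim miRNAs, these are little affected by background: their differences in the authors' values were 0.68 and 0.60. They did depend on the scaling, at 1.09 and 1.07 without it and 0.96 and 0.94 with spike scaling. miR-8110 read 2128 and 1192, a difference of 0.54. miR-1982-5p (0.61), miR-1224-5p (0.49), miR-760-3p (0.46) and miR-6896-5p (0.45) complete the 15 highest. No function is given for these miRNAs here.

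The brightest spots hardly differed in order. miR-5126, miR-2861, miR-3960, miR-6538 and miR-2137 were the brightest 5 on both arrays and carried 36.8% of the signal above the blank mean in the aerobic pool and 38.2% in the control pool. miR-5126 read 55838 in the aerobic pool and 41670 in the control pool, and miR-2861 read 51339 and 47010, so the first and second places were exchanged. miR-3960 (43475 and 34243), miR-6538 (32415 and 29577) and miR-2137 (26724 and 25186) kept ranks 3, 4 and 5. Quantile normalization then sets their difference to 0.00 by construction, which says nothing of their amounts.

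Grouping all compared miRNAs by seed gave 14 families of 4 or more. The highest medians were those of the let-7 seed (0.38, 10 members), the miR-17 seed (0.34, 6 members) and the miR-15/16 seed (0.23, 7 members). Next came the seed of miR-7012-5p, miR-7057-5p, miR-8113 and miR-8119 (0.20, with 2 higher) and the miR-25/92 seed (0.09). The lowest medians were those of the seed shared by miR-3547-5p, miR-6368, miR-6404 and miR-6405 (-0.23), the miR-125 seed (-0.07), the seed of miR-6922-5p, miR-6993-5p, miR-7008-5p and miR-705 (-0.03), that of miR-6911-5p and its relatives (0.00) and the miR-130/301 seed (0.00). The first 5 medians stayed positive under all alternatives tried, though those in detection or with background from spots without a probe left them unchanged. The lowest turned to 0.11 without scaling, and those near 0 changed sign with the scaling. In the miR-125 seed group miR-125a-5p and miR-125b-5p themselves stood at 0.19 and 0.25. They were the 2 of its 5 members above 0, beside miR-351-5p, miR-6367 and miR-6394.

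The opposite arms of a hairpin seldom both lay beyond spot scatter, though the offset narrows the difference of a dim arm. Of the 401 hairpins, 37 had 1 arm beyond spot scatter and 363 had neither, and the differences of the arms correlated at r = 0.19 across hairpins, a description in which hairpins share both arrays. let-7d-5p stood at 0.46 and let-7d-3p at -0.02, and miR-15b-5p at 0.45 and miR-15b-3p at -0.01. miR-1982-5p stood at 0.61 and miR-1982-3p at -0.04. On the lower side miR-3093-5p stood at -0.77 and miR-3093-3p at -0.04, and miR-7666-3p at -0.69 and miR-7666-5p at 0.00. Higher miRNAs were more often 5p arms: 33 of 542 against 7 of 563 3p arms. The 5p spots were also brighter, with median raw intensities of 170.2 and 149.9 in the aerobic and control pools against 124 and 117 for 3p spots, and the part of brightness in this was not tested.

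**Figure D4:**
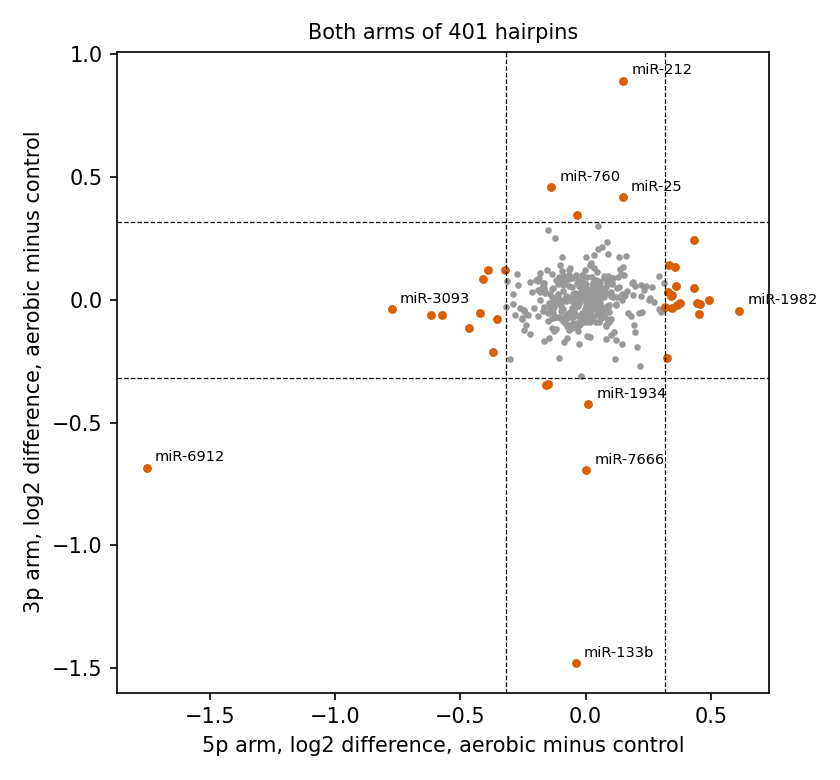
Log2 difference, aerobic minus control, of the 5p arm (x axis) against the 3p arm (y axis) of 401 hairpins, with dashed lines at the limits of spot scatter. Orange points have at least 1 arm beyond it, and miR-6912 at lower left is the only hairpin with both.

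Base composition moved with the difference. Of the 51 higher miRNAs 31 had numbers under 1000, against 490 of the 1321. On the lists above were 25 of the 51, against 125 of the 1321. The lists were chosen with earlier results of these data known, so that share is not an independent result. The median GC content of the higher miRNAs was 53.5%, against 63.6% for the lower miRNAs and 56.5% for all with a sequence. Across 1131 miRNAs GC content and difference had a Spearman correlation of -0.24, as a description, since all points share the same arrays and bright probes are richer in GC. Without scaling between arrays it was 0.04 over all miRNAs. It stayed negative in brighter ones whatever the scaling, at -0.30 scaled and -0.29 unscaled for raw intensities of 150 to 1000. Within that range 51 miRNAs with GC under 50% had a median of 0.24, with 16 higher and 1 lower, and 227 with GC of 60% or more had a median of -0.03, with 6 higher and 9 lower. let-7a-5p, miR-16-5p and miR-17-5p are in the first of these classes.

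**Figure D5:**
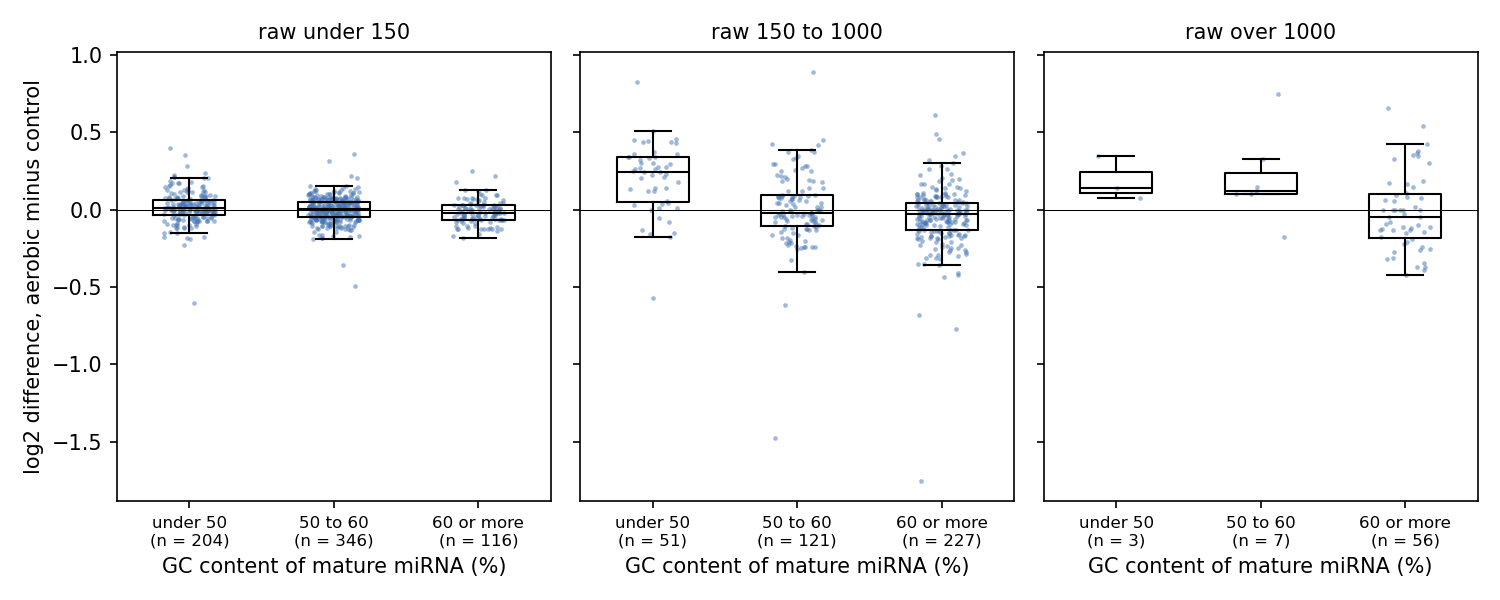
Log2 difference, aerobic minus control, by GC content of the mature miRNA, in 3 ranges of mean raw intensity. Points are miRNAs, boxes span the quartiles with the median as a line, and whiskers reach 1.5 times the box. At raw intensities of 150 to 1000 the GC-poor class has a median of 0.24.

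Among larger groups, the imprinted Dlk1-Dio3 region on chromosome 12 gave 3 runs of miRNA genes at most 10 kb apart, with 19, 34 and 5 products compared, of which 0 were higher or lower, against 3.86% and 2.12% of all compared, and medians of 0.01, 0.00 and -0.05. Dim miRNAs seldom passed the limit anywhere on the array, so little can be read from these counts. The numbered block from miR-6896 to miR-7094 had 7 higher and 5 lower of 187 5p arms and 0 higher and 1 lower of 178 3p arms, with medians of -0.03 and 0.00. For the 5p arms these shares, 3.74% and 2.67%, were close to those of all miRNAs.

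miRNAs detected on only 1 array added no clear difference. There were 43 such miRNAs in the aerobic pool and 110 in the control pool, and 426 were detected on neither array. The 110 are not well set apart from background. The control array's detection level of 94.8 lay below its mean of 96.7 for printed spots without a probe, of which 78.7% passed it. For these only a bound on the fold can be had, since the dim side is known no better than its spot or the lowest detected signal of its array, whichever was higher. In the aerobic pool the largest bounds were at least 1.12-fold higher for miR-6350 and for miR-195b, and at least 1.11-fold for miR-148b-3p and miR-465d-3p, then 1.10-fold for miR-1957b. On the lower side they were at least 1.19-fold lower for miR-6920-5p, 1.10-fold for miR-206-3p, 1.09-fold for miR-1197-5p and 1.06-fold for miR-802-3p and miR-743b-5p. All bounds lay within spot scatter, and only 64 of the 110 in the control pool had a bound over 1.

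Against the resistance exercise pool, on the third array, the same miRNAs gave other differences. Among the highest miRNAs, miR-122-5p, miR-212-3p and miR-760-3p were higher in the aerobic than in the resistance pool beyond spot scatter, by 0.46, 0.41 and 0.39. Raw intensities were 290.2, 282 and 653 in the aerobic pool against 192, 193 and 415 in the resistance pool. miR-16-5p was instead lower in the aerobic pool after scaling, by a difference of -0.41. Its raw intensities, 968 and 1010 in the same order, were close. Among the lowest, miR-1a-3p stood at -0.80, miR-133a-3p at -0.78 and miR-133b-3p at -0.67 against the resistance pool, and miR-7666-3p, at 1130.1 and 1135, at -0.44, while miR-6912-5p, at 322 and 279, differed by only -0.04. These differences use the same aerobic array as those above and the same limit of spot scatter. That limit came from spikes on the aerobic and control arrays, not on the resistance array.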

How the data were processed

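Plasma miRNA was measured on single-colour arrays, 1 per group, with RNA labelled with Cy5 (Hy5 in another label), per the labels. The authors deposited scanner files with the raw intensity of 3200 spots per array, the background-subtracted intensity and a globally normalized intensity, per the file headers. The labels name neither scanner nor software. A human chip is named in the series' text, while the probes carry mouse names. The extraction label names cells, and plasma was taken as the source from the other labels.

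Background was the mean of 896 blank spots per array after trimming 5% at each end, which left 806, and detection meant 2 SD above it. This gave the same empty cells as the deposited intensity, and the series' value table held the same normalized intensities, rounded. Raw intensity of all spots was corrected with normexp (offset 50) in limma 3.58.1 and R 4.3.3. The 1900 miRNA probes, 12 of which name several miRNAs, were then quantile normalized over 3 arrays on the log2 scale. normexp estimates any remaining background from all spots, so the blank mean sets detection but not the differences. Processing was tested on simulated data. Named miRNAs were the 15 highest and 15 lowest differences among miRNAs detected on both arrays and above 10 SD of the blanks on at least 1, the 5 brightest, the 5 largest bounds each way, list members, seed families of 4 or more (the 5 highest and 5 lowest medians) and opposite arms. The arms, GC content and genomic runs were examined after values had been seen. The members and lists were chosen with earlier results of these data known. The number of arrays limits the precision.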

Additional observations from a re-analysis of the deposited data

How the results depend on the processing

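Alternatives were an offset of 0, subtraction of the blank mean, background from printed spots without a probe, scaling to the median miRNA, no scaling, quantile normalization over 2 arrays, the authors' normalized intensity, detection at 10 SD and no detection filter. Scaling to the spikes was added after seeing the data. Detected on both arrays were 808 miRNAs at 10 SD and 1121 with background from spots without a probe, against 1321. At least 2-fold higher were 2 with an offset of 0, 15 with blank subtraction, 4 without scaling, 17 in the authors' values and 1 with spike scaling, against 0. At least 2-fold lower were 9, 13 and 12 with an offset of 0, blank subtraction and the authors' values, against 3. Higher beyond spot scatter were 147, 219, 92, 255, 179 and 126, and lower 115, 184, 15, 9, 252 and 13, with an offset of 0, blank subtraction, median scaling, no scaling, the authors' values and spike scaling, in that order. An offset of 0 widens differences of dim spots by construction, and subtraction of the blank mean also adds no offset. The cause of the other changes was not tested. The 15 highest and 15 lowest differences kept their sign in every alternative that gave them a value. Detection at 10 SD, no detection filter and background from spots without a probe could not change a sign, because they leave each miRNA's difference unchanged. The muscle median was -0.18 without a detection filter, which adds 4 probes near background. No paired analysis was possible because each group has 1 array.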

Other observations

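The probe for miR-208a-5p, the passenger arm of a heart miRNA, read 2094 in the aerobic pool and 1752 in the control pool, a difference of -0.18 after scaling, while its partner miR-208a-3p was below detection on both arrays. It was singled out after its value had been seen. Neither miR-499-5p nor miR-208b-3p was detected on either array.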
